A study of Mus musculus with 6 samples.

Results

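The mitochondrial carrier genes of the Slc25 family were examined in ATAC-seq data of mouse liver. ATAC-seq marks open chromatin by where a transposase can cut the DNA, and each value is the accessibility of a peak, a stretch of DNA where cuts pile up. The members are the 143 peaks whose nearest gene, in the authors' deposited peak table, has a symbol starting with Slc25a, other than Slc25a1, Slc25a13 and Slc25a15. They belong to 39 genes and make up 0.193% of the 74076 peaks. The rule uses gene names and no measured value.

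The animals were male C57BL/6J mice of 8 weeks, and fresh liver gave 3 libraries from refed and 3 from fasted mice. The refed mice (replicates 5, 7 and 8) had no food from 10 am, for 12 h, and were then given a high sucrose diet of 69% sucrose and 10% fat from 10 pm, again for 12 h. The fasted mice (replicates 1, 3 and 4) had no food from 10 pm, for 12 h. All mice were killed at 10 am. The groups therefore differ in food, in diet composition and in the earlier fast together, and these cannot be told apart. The labels number the libraries and do not say that each is a separate mouse, so a p-value here sets a difference against the spread of 3 libraries per group, which may be technical.

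Most carriers of this family sit in the inner mitochondrial membrane and move metabolites between the cytosol and the matrix. They exchange ADP for ATP, bring in phosphate, amino acids, fatty acyl groups, cofactors, nucleotides and iron, and let metabolites leave for use in the cytosol. In liver this traffic links the mitochondrion to sugar production, ammonia disposal and fat synthesis, which feeding and fasting change. Accessibility of a peak near a gene is not a measure of the gene's transcript or protein.

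The promoters of 4 carrier genes are shown, 3 of genes with a called peak and 1 of the gene whose start changed most. Slc25a33, Slc25a42 and Slc25a47 each had a peak away from the start that was lower in refed livers, and Slc25a34 had the largest change of any start peak, the strongest peak within 1 kb of a carrier gene's start. Each sequence is the 250 bases before the gene start in RefSeq, on the gene's own strand, in build GRCm38.p6. The windows are chr4:149774268-149774517 (minus strand) for Slc25a33, chr8:70212282-70212531 (minus strand) for Slc25a42, chr12:108850879-108851128 (plus strand) for Slc25a47 and chr4:141623835-141624084 (minus strand) for Slc25a34. Capitals mark the letters of a GC box, a CCAAT box or an E-box on either strand.
Slc25a33: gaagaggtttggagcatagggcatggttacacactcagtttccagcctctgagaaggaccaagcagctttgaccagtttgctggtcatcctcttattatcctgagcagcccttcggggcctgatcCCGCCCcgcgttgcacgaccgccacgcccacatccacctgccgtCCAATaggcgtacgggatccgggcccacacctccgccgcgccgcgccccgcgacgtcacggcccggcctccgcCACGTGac
Slc25a42: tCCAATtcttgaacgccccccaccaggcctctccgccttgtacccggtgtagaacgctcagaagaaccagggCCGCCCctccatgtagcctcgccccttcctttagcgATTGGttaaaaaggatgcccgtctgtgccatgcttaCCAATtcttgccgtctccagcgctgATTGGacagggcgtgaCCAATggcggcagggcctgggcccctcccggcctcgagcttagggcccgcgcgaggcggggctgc
Slc25a47: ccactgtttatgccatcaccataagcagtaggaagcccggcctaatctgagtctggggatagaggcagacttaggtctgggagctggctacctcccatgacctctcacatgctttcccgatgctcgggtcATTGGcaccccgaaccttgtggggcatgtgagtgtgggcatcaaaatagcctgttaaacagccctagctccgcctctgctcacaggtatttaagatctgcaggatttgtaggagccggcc
Slc25a34: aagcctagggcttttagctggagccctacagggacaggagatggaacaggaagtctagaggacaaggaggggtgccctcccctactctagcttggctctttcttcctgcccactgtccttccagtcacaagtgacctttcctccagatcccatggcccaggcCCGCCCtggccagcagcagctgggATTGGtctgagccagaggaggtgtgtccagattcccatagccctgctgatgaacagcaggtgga

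The 4 windows differ in composition. Slc25a33 had a GC content of 64.4% and 23 CpG dinucleotides, with a GC box, a CCAAT box and an E-box that ends 3 bases before the start. Slc25a42 had 63.6% GC, 18 CpG dinucleotides, a GC box and 5 CCAAT boxes. Slc25a47, a carrier gene used mainly by liver, had 54.4% GC, 6 CpG dinucleotides and 1 CCAAT box, and Slc25a34 had 58.4% GC and 1 CpG dinucleotide.

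A window was matched by symbol for 29 of the 39 genes, and 7 short motifs were searched on both strands. The median GC content was 59.6% in the 29 carrier windows, against 52% in all 27025 windows of the table. The median number of CpG dinucleotides was 14 in carrier windows, against 6 in all. The GC box GGGCGG stood in 20 of 29 carrier windows (69.0%), against 32.9% of all windows. The CCAAT box stood in 12 (41.4%, against 34.5%), the E-box CACGTG in 4 (13.8%, against 6.05%), the ETS element CCGGAAG in 5 (17.2%, against 7.05%) and the CRE TGACGTCA in 1 (3.45%, against 1.62%). The letters TCAAGGTCA, a sequence bound by ERR receptors, and TGTTTAC, a forkhead site, were in none of the 29, against 0.366% and 3.09% of all windows. None of the 7 motifs contains another, a match is only a run of letters, and these windows were not aligned to the mm9 peaks.

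Refed libraries held 4176671, 3238712 and 4679316 reads in peaks for replicates 5, 7 and 8, and fasted libraries held 4850613, 3205634 and 4088425 for replicates 1, 3 and 4. Values are RPKM, the reads in a peak scaled to the length of the peak and to the reads of the library that lie in peaks. A carrier peak held a median of 49.5 reads per library. Peaks were assigned to 7 of 7 hepatocyte marker genes, and to 5 of 5 endothelial, 4 of 5 stellate, 3 of 6 Kupffer, 3 of 6 lymphocyte and 2 of 4 cholangiocyte marker genes, with none, among others, for Cd5l, Clec4f and Vsig4 (Kupffer), Des (stellate), Cd3e and Cd79a (lymphocyte), and Krt7 and Krt19 (cholangiocyte).

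Carrier genes were well covered by open chromatin. RefSeq lists 44 protein-coding genes that the rule would take, and the 5 with no assigned peak were Slc25a11, Slc25a18, Slc25a28, Slc25a41 and Slc25a54. Peak number was uneven, with 9 genes at 1 peak and 11 genes with 5 or more, which together held 90 of the 143. Slc25a33 had 14 peaks, Slc25a37 had 12, and Slc25a25, Slc25a42 and Slc25a51 had 9 each. The median carrier peak was 499 bp wide, against 435 bp over all peaks, and its median accessibility was 28.1 RPKM, against 15.7 RPKM over all peaks.

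By position, 55 of the 143 carrier peaks were in introns (38.5%, against 35.7% of all peaks), 45 were intergenic (31.5%, against 43.2%) and 24 were in the promoter class (16.8%, against 12.4%). A repeat element was the annotation of 15 carrier peaks, or 10.5% of them, against 26.5% of all peaks. A CpG island was the annotation of 7, or 4.90%, against 3.40%. For 15 carrier peaks of 9 genes the annotated transcript was that of a neighbouring gene, so the nearest start and the overlapping gene differ there. The peak of Slc25a2, which lies in an intron of Gm38667, held no read in any library.

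**Figure D1:**
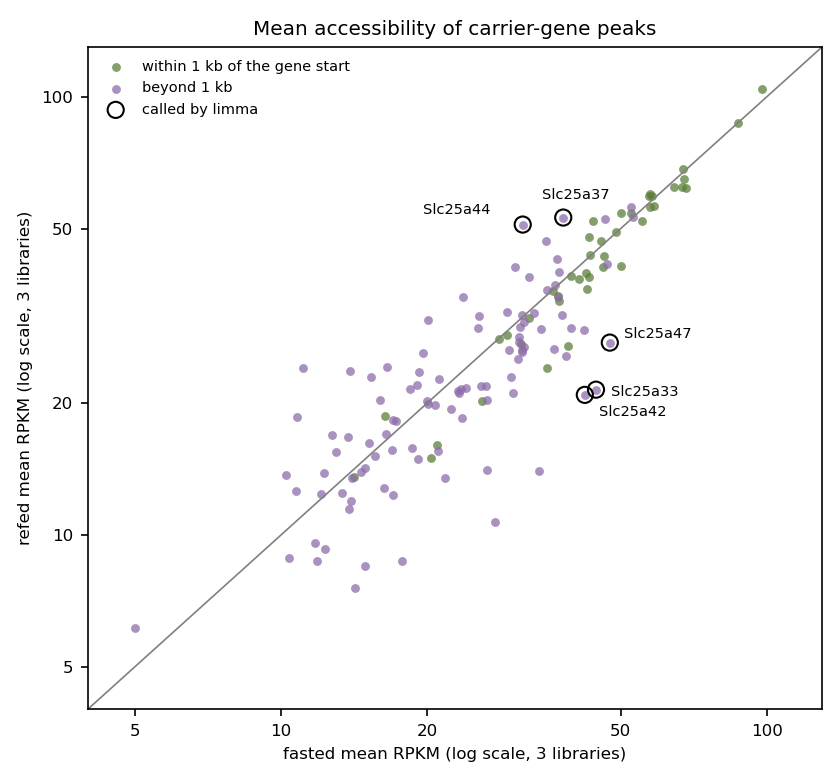
Mean RPKM of each carrier peak in 3 refed libraries (vertical axis, log scale) against 3 fasted libraries (horizontal axis, log scale), coloured by distance to the gene start, with the line of equal values. The 5 peaks called by limma are ringed, all lie beyond 1 kb, and the Slc25a2 peak without reads is below the axes.

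Few carrier peaks passed the test for a difference in accessibility between refed and fasted livers. In refed livers 2 peaks rose, an intron peak of Slc25a44 and an intron peak of Slc25a37, and 3 fell, beside Slc25a33, Slc25a42 and Slc25a47. The rises were 0.70 and 0.48 and the falls between -0.79 and -1.06 on the log2 scale, and 138 of the 143 peaks did not pass the test. The test was limma on log2 RPKM of all 74076 peaks with Benjamini-Hochberg adjustment, and peaks with an adjusted p under 0.05 were called. The 5 calls are 3.50% of carrier peaks, against a background of 1.23% of all peaks called, 0.802% higher and 0.427% lower. That background holds weaker peaks, with a median of 15.7 RPKM against 28.1 RPKM for carrier peaks. It also holds peaks without reads, which cannot be called. The part of peak strength in the difference was not tested.

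The count of calls moved with the libraries used. Without refed replicate 8 or without fasted replicate 4 no carrier peak was called higher by limma, and without fasted replicate 3, refed replicate 5 or refed replicate 7 there was 1. The count of lower calls was 2 without fasted replicate 4 and between 2 and 4 over all 6 such fits. Limma calls over all peaks also moved, from 910 with all 6 libraries to 150 without refed replicate 8 and 229 without fasted replicate 4. They were 439 and 322 without refed replicates 5 and 7, and 875 and 1175 without fasted replicates 3 and 1. In these bulk samples fewer cells with an open site and less opening per cell cannot be told apart.

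Other calls of the same data gave more peaks, most of them lower in refed livers. With edgeR's quasi-likelihood test on reads recovered from the RPKM values, 3 carrier peaks rose and 7 fell, which is 7.04% of the 142 tested, against 4.01% of all peaks tested, 2.58% higher and 1.43% lower. DESeq2 called 6 of the 134 carrier peaks that had an adjusted p (4.48%), against 1.66% of all. The authors' deposited table lists 11 carrier peaks of 10 genes (7.69%), 3 higher and 8 lower in refed livers, against 4.47% of all peaks listed. It includes all 5 peaks called by limma, with the same sign. An unadjusted limma p under 0.05 was found for 12 peaks with a positive change (8.39%) and 18 with a negative one (12.6%), together 21.0%, against 8.91%, 5.64% and 14.5% of all peaks.

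The 3 refed values lay wholly above the 3 fasted values at 12 carrier peaks (8.39%) and wholly below them at 25 (17.5%). Among all peaks 10.5% lay wholly above and 8.57% wholly below. Together 37 carrier peaks (25.9%) had groups that did not overlap, against 19% of all peaks. The median change over carrier peaks was -0.07 on the log2 RPKM scale, against 0.00 over all peaks, and 85 of 143 (59.4%) were below 0, against 45.6% of all peaks. A peak without reads in any library takes a fixed change of 0.002, with overlapping groups. Such peaks count as above 0 and as overlapping, which lowers the shares given for all peaks. Between 4905 and 5658 peaks held 0 reads in each library, and 1 of the 143 carrier peaks held none in any. How many of all peaks were empty in every library was not counted. Summed over all peaks, accessibility overlapped, with 1.460e+06 to 1.487e+06 RPKM in refed and 1.440e+06 to 1.486e+06 RPKM in fasted libraries. Each library is scaled to its own reads in peaks, which leaves these totals over all peaks little room to differ. Their overlap is therefore no contrast for the carrier sums. Summed over the 143 carrier peaks, accessibility was 4072 to 4323 RPKM in refed libraries, against 4340 to 4551 RPKM in fasted libraries.

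Some marker lists of other cells also differed in their sums. The 8 lymphocyte marker peaks summed to 103 to 113 RPKM in refed libraries, against 126 to 135 RPKM in fasted libraries, and none was called by limma, with 2 at an unadjusted p under 0.05 and 0 called by edgeR or DESeq2. The 8 cholangiocyte marker peaks summed to 134 to 160 RPKM in refed libraries, against 124 to 134 RPKM in fasted libraries, with 134.2 as the lowest refed and 134.0 as the highest fasted value. The hepatocyte, endothelial, Kupffer and stellate sums overlapped between the groups. Single peaks of these lists were called by limma: of 97 hepatocyte marker peaks 3 at Alb fell, with changes from -1.01 to -1.41, and 1 at Apoa1 rose by 1.18, and of 28 endothelial marker peaks 1 at Pecam1 rose by 1.90 (log2). None of the 5 Kupffer and 13 stellate marker peaks was called by limma, edgeR or DESeq2, with 0 and 1 at an unadjusted p under 0.05. Among all peaks 14.5% had an unadjusted p under 0.05 and limma called 1.23%. The part of the cells of these marker lists in the carrier results was not tested.

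**Figure D2:**
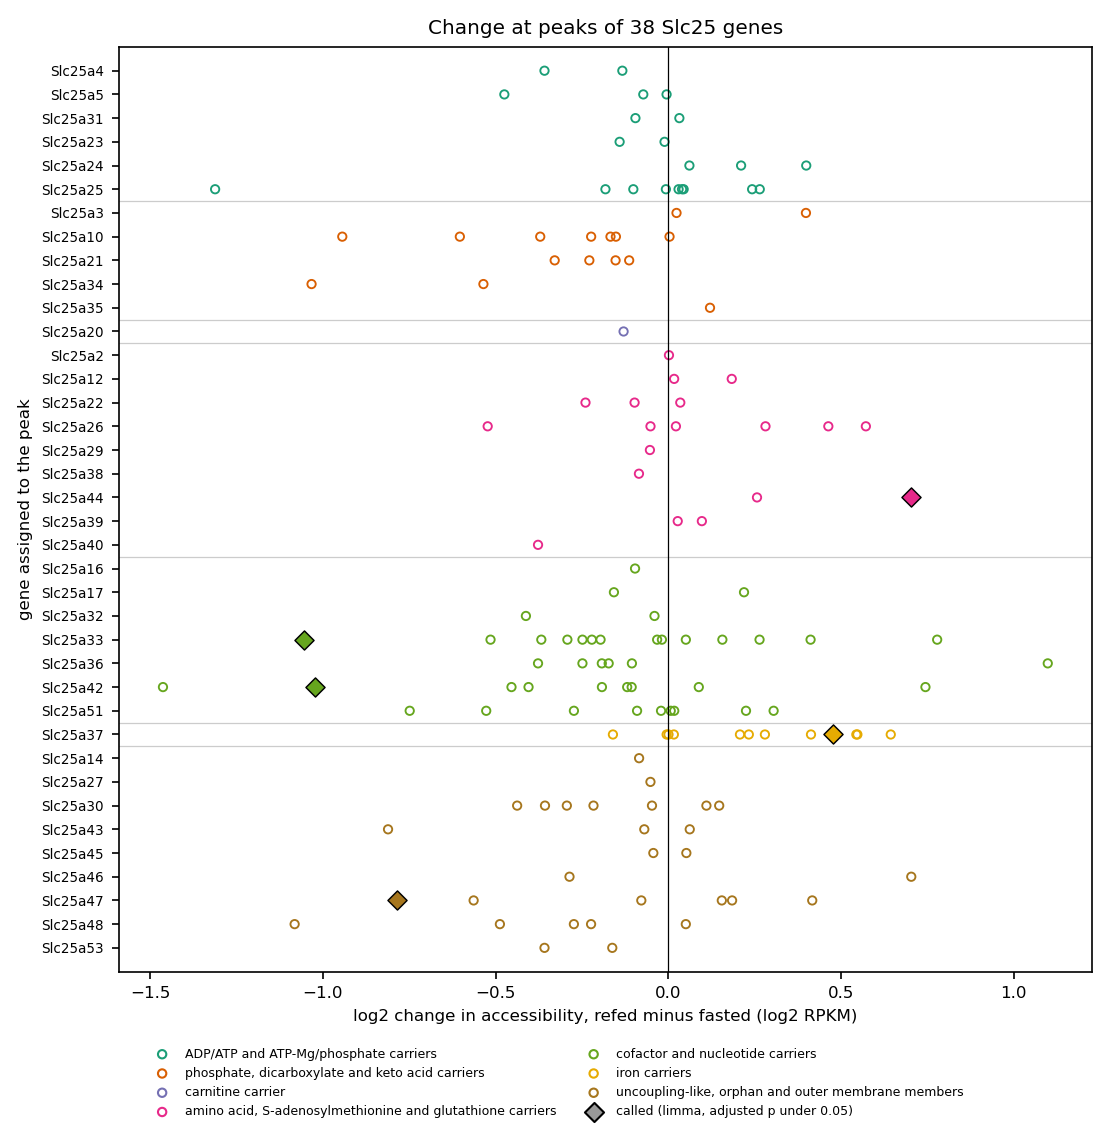
Log2 change, refed minus fasted, of each carrier peak (horizontal axis) of 38 genes, 1 gene per line, coloured by the role of the carrier. Filled diamonds are the 5 peaks called by limma, 2 above 0 and 3 below 0, and the remaining peaks did not pass the test.

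Peaks at gene starts were mostly stronger than the other carrier peaks, and their number of calls and size of change were close to those of gene starts in the whole table. A start peak was found for 36 of the 39 genes, all but Slc25a2, Slc25a31 and Slc25a40. Their mean accessibility ran from 13.9 RPKM at Slc25a43 to 101 RPKM at Slc25a42, with a median of 45.9 RPKM, against a median of 21.9 RPKM for carrier peaks beyond 1 kb. The change at start peaks ran from -0.54 at Slc25a34 to 0.26 at Slc25a44, with a median of -0.05, and 33 of 36 lay within 0.3 of 0 on the log2 scale.

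By distance, 0 of 42 carrier peaks within 1 kb of a start were called by limma, against 0.487% of all such peaks, a share at which a set of this size holds less than 1 call. Of these 42, 4 had an unadjusted p under 0.05, against 6.34% of all peaks within 1 kb, edgeR called 1, against 1.03%, and DESeq2 called 1, against 0.439%. Beyond 1 kb, 5 of 101 (4.95%) were called by limma, against 1.41% of all such peaks. The median size of the change, without its sign, was 0.09 within 1 kb and 0.26 beyond it for carrier peaks, against 0.10 and 0.28 for all peaks. Of the 24 peaks in the promoter class limma called 0, against 0.542% of all peaks in that class, and 1 had an unadjusted p under 0.05, against 6.42%.

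The start peaks of the genes with a promoter shown above are given by library or by mean. The Slc25a42 start peak had 97.6, 125 and 90.6 RPKM in refed replicates 5, 7 and 8, against 86.6, 113 and 94.5 RPKM in fasted replicates 1, 3 and 4. The Slc25a47 start peak averaged 47.9 ± 2.37 RPKM in refed and 43.1 ± 4.42 RPKM in fasted libraries (SD, n = 3 each), and that of Slc25a33 averaged 54.4 ± 3.23 RPKM in refed and 52.5 ± 0.992 RPKM in fasted libraries. In each of these 3 the groups overlapped. The Slc25a34 start peak, described below, was the exception.

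The amino acid, S-adenosylmethionine and glutathione carriers had 19 peaks at 9 genes, of which 1 rose, 0 fell and 18 were not called by limma, with a median change of 0.02. The peak that rose lies in intron 1 of 3 of Slc25a44, which brings branched-chain amino acids into mitochondria, at chr3:88225843-88226557 (mm9), 2856 bp past the start. It had 50.2, 51.4 and 51.7 RPKM in refed replicates 5, 7 and 8, against 29.4, 34.5 and 30.4 RPKM in fasted replicates 1, 3 and 4. Every refed value was above every fasted value. The means were 51.1 ± 0.778 RPKM in refed and 31.4 ± 2.67 RPKM in fasted libraries (SD, n = 3 each), a change of 0.70 ± 0.11 (log2, SE) with a limma adjusted p of 0.0139. The call was lost without fasted replicate 4 (limma adjusted p = 0.0589) and without refed replicate 8 (0.0774), and edgeR (adjusted p = 0.00291) and DESeq2 (adjusted p = 0.0118) made it too. The start peak of the same gene averaged 52.1 ± 1.57 RPKM in refed and 43.8 ± 5.87 RPKM in fasted libraries, a change of 0.26 ± 0.11 that did not pass (limma adjusted p = 0.314).

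The other genes of this group carry aspartate and glutamate (Slc25a12), glutamate (Slc25a22), basic amino acids (Slc25a2, Slc25a29), glycine (Slc25a38), S-adenosylmethionine (Slc25a26) and glutathione (Slc25a39, Slc25a40). No peak of theirs was called. The Slc25a29 start peak averaged 64.8 ± 1.63 RPKM in refed and 67.5 ± 7.77 RPKM in fasted libraries, and the Slc25a12 start peak 43.5 ± 0.599 RPKM in refed and 43.2 ± 4.34 RPKM in fasted libraries.

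Iron import is carried out by Slc25a37, mitoferrin-1, best known for supplying iron to heme synthesis in developing red cells. All 12 iron carrier peaks belong to Slc25a37, and 1 rose, 0 fell and 11 were not called by limma. The peak that rose lies in intron 1 of 3 at chr14:69887583-69888250 (mm9), 15244 bp past the start. It had 55.2, 52.7 and 51.2 RPKM in refed replicates 5, 7 and 8, against 39.5, 37.8 and 37.0 RPKM in fasted replicates 1, 3 and 4, with no overlap between the groups. The means were 53.0 ± 2.03 RPKM in refed and 38.1 ± 1.28 RPKM in fasted libraries (SD, n = 3 each), a change of 0.48 ± 0.10 (log2, SE) with a limma adjusted p of 0.0422. This is the least stable of the 5 calls: it was kept without fasted replicate 1 and lost without any other single library, with limma adjusted p from 0.0632 to 0.150. Median centring (limma adjusted p = 0.0911) and DESeq2 (adjusted p = 0.208) also lost it, while edgeR called it (adjusted p = 0.0350).

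Along Slc25a37, 10 of 12 peaks had a change above 0 and 5 had an unadjusted p under 0.05. At 5 peaks all refed values were above all fasted values, and at 1, the peak at the gene's end, all were below. Over all peaks 45.6% had a change below 0 and 14.5% an unadjusted p under 0.05. Refed values lay wholly above at 10.5% and wholly below at 8.57% of all peaks. This gene was looked at along its length because it holds a call. The changes along Slc25a37 ran from -0.16 to 0.64 with a median of 0.26. The start peak, which lies in intron 1, averaged 87.0 ± 4.07 RPKM in refed and 87.2 ± 7.87 RPKM in fasted libraries. Its change was 0.00, and it is 1 of the 10 above 0. The other positive changes were downstream of it, within the same intron. Peaks of 1 gene share their libraries and are not replicates of each other.

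**Figure D3:**
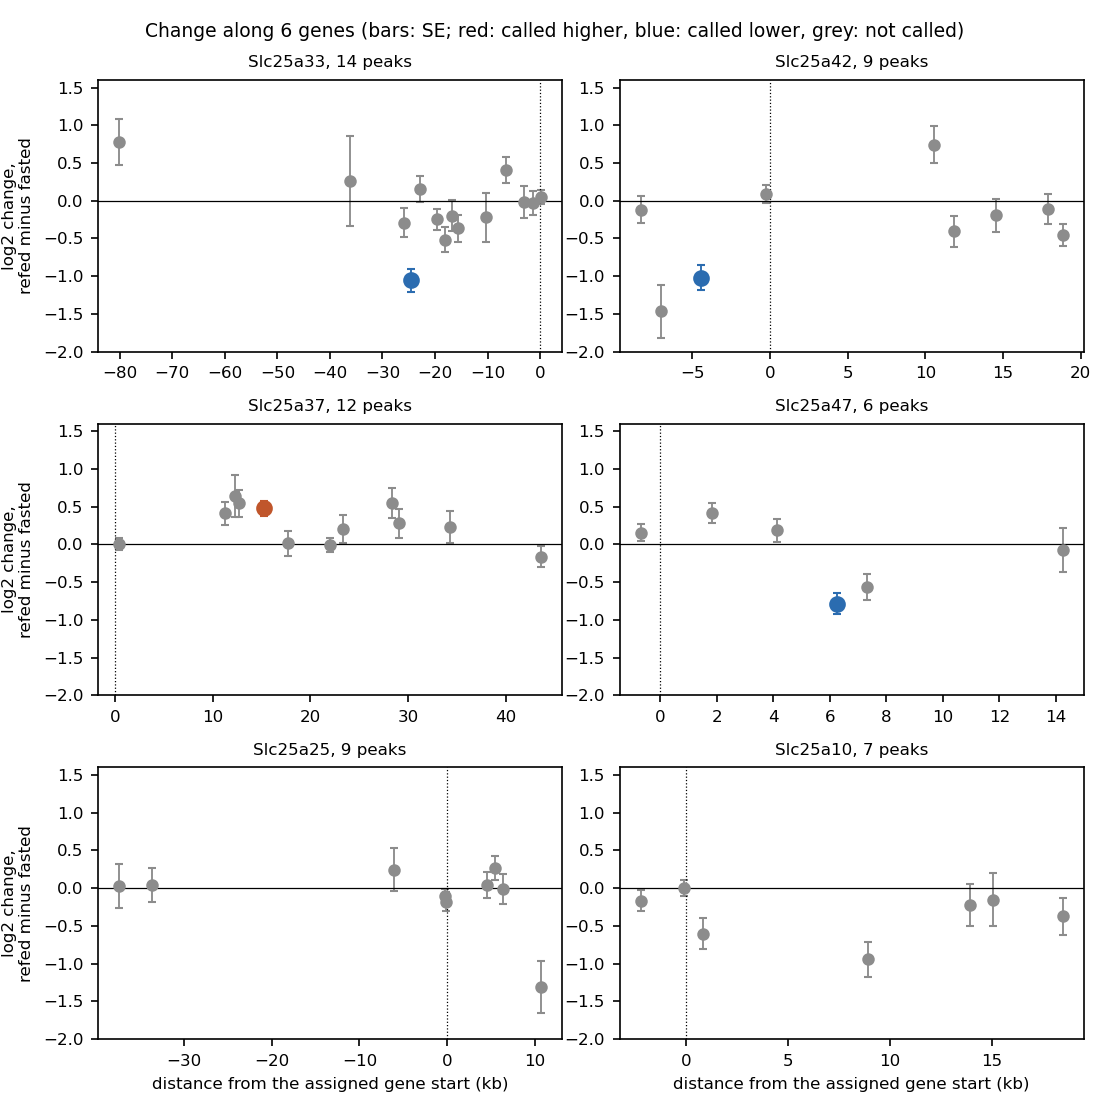
Log2 change, refed minus fasted, with its standard error, of each peak of 6 carrier genes, against the distance from the gene start in kilobases (negative values are upstream). Red marks the peak limma called higher (Slc25a37), blue those it called lower (Slc25a33, Slc25a42 and Slc25a47), and grey those not called; the start peaks of the 6 genes have changes between -0.10 and 0.16.

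The cofactor and nucleotide carriers had the most peaks, 45 at 8 genes, of which 0 rose, 2 fell and 43 were not called by limma. Their median change was -0.12 and 31 of 45 were below 0. Slc25a33, which carries pyrimidine nucleotides needed for mitochondrial DNA and RNA synthesis, had the smallest adjusted p of all carrier peaks. That peak is intergenic at chr4:149172711-149173283 (mm9), 24621 bp upstream of the start. It had 19.2, 24.2 and 20.9 RPKM in refed replicates 5, 7 and 8, against 48.2, 45.2 and 40.1 RPKM in fasted replicates 1, 3 and 4. Each refed library was far below each fasted one. The means were 21.5 ± 2.56 RPKM in refed and 44.5 ± 4.09 RPKM in fasted libraries (SD, n = 3 each), a change of -1.06 ± 0.15 (log2, SE) with a limma adjusted p of 0.00658. The call was kept without any 1 of the 6 libraries and was also made by edgeR (adjusted p = 0.000843) and DESeq2 (adjusted p = 0.000515).

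The 14 peaks of Slc25a33 did not move together. Of these, 9 had a change below 0 and 5 above. The peak 18139 bp upstream had 18.1, 21.1 and 24.0 RPKM in refed libraries, against 31.3, 31.3 and 27.5 RPKM in fasted libraries, without overlap but not called by limma (change -0.51, adjusted p = 0.170). The peaks 15653 and 19620 bp upstream were also lower in refed libraries without overlap, and were not called (changes -0.37 and -0.25). The peak 22772 bp upstream, next to the called one, averaged 32.3 RPKM in refed and 29.2 RPKM in fasted libraries, and its groups overlapped. On the far side of the called peak, the peak 25872 bp upstream averaged 26.2 RPKM in refed and 31.4 RPKM in fasted libraries. Its groups overlapped too (change -0.29). The peak 80145 bp upstream averaged 18.6 RPKM in refed and 10.8 RPKM in fasted libraries, without overlap and not called (change 0.78).

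Slc25a42, which brings coenzyme A into mitochondria, had the strongest carrier peak at its promoter and a called peak upstream. The called peak is intergenic at chr8:72740499-72740728 (mm9), 4433 bp before the start. It had 18.7, 18.8 and 25.1 RPKM in refed replicates 5, 7 and 8, against 45.7, 44.8 and 36.2 RPKM in fasted replicates 1, 3 and 4, with no overlap. These rest on 18, 14 and 27 reads in refed and 51, 33 and 34 reads in fasted libraries. The means were 20.9 ± 3.65 RPKM in refed and 42.2 ± 5.26 RPKM in fasted libraries (SD, n = 3 each), a change of -1.02 ± 0.17 (log2, SE) with a limma adjusted p of 0.0141, which stayed under 0.05 without any 1 of the 6 libraries. It was called by edgeR (adjusted p = 0.0246) and not by DESeq2 (adjusted p = 0.129).

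A peak 7020 bp before the Slc25a42 start, at the end of the neighbouring Armc6 gene, had 6.01, 9.04 and 17.0 RPKM in refed replicates 5, 7 and 8, against 20.7, 36.5 and 25.6 RPKM in fasted replicates 1, 3 and 4. Its change of -1.46 was the most negative of all carrier peaks, and it was called by edgeR (adjusted p = 0.0432) but not by limma (adjusted p = 0.0635) or DESeq2 (adjusted p = 0.150). Inside the gene a peak 10570 bp past the start went the other way, with means of 23.6 RPKM in refed and 13.8 RPKM in fasted libraries (change 0.74, limma adjusted p = 0.173, not called).

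Slc25a36, a second pyrimidine nucleotide carrier, had an intergenic peak 29634 bp upstream, at chr9:97040900-97041288 (mm9), with 27.7, 28.6 and 15.9 RPKM in refed replicates 5, 7 and 8, against 12.7, 8.02 and 12.6 RPKM in fasted replicates 1, 3 and 4. It was called higher by edgeR (adjusted p = 0.0406) and not by limma (change 1.10 ± 0.30, adjusted p = 0.0944) or DESeq2 (adjusted p = 0.157). Slc25a51, which imports NAD, had 9 peaks with none called. Its peak 2614 bp upstream had 26.4, 28.1 and 33.7 RPKM in refed libraries, against 42.4, 41.8 and 42.1 RPKM in fasted libraries, and did not pass (limma adjusted p = 0.0733). The folate (Slc25a32) and coenzyme A-related (Slc25a16) carriers had no called peak.

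The uncoupling-like, orphan and outer membrane members had 29 peaks at 9 genes, of which 0 rose, 1 fell and 28 were not called by limma. The peak that fell lies at the end of Slc25a47, at chr12:110094937-110096273 (mm9), 6266 bp past the start. It had 25.1, 30.0 and 27.3 RPKM in refed replicates 5, 7 and 8, against 40.7, 53.2 and 48.7 RPKM in fasted replicates 1, 3 and 4. The groups did not overlap. The means were 27.5 ± 2.48 RPKM in refed and 47.5 ± 6.32 RPKM in fasted libraries (SD, n = 3 each), a change of -0.79 ± 0.14 (log2, SE) with a limma adjusted p of 0.0190. It was called by edgeR (adjusted p = 0.000601) and DESeq2 (adjusted p = 9.72e-05), and lost in limma without fasted replicate 4 (adjusted p = 0.0892) or refed replicate 8 (0.0752).

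The other peaks of Slc25a47 were not called, and the groups overlapped at the start peak and 4124 bp past it. The intron peak 1820 bp past the start had 53.3, 45.5 and 41.8 RPKM in refed libraries, against 37.6, 36.8 and 30.8 RPKM in fasted libraries, without overlap (change 0.42). The peak 7300 bp past the start averaged 25.7 RPKM in refed and 38.6 RPKM in fasted libraries (change -0.56). In Slc25a48 an intron peak 11521 bp past the start had a change of -1.08 that neither limma (adjusted p = 0.148) nor edgeR (adjusted p = 0.0561) called, while the authors' deposited table lists it at -1.10 with an FDR of 0.0257. Slc25a46, a member of the outer membrane, had a start peak of 41.0 ± 1.55 RPKM in refed and 50.1 ± 3.49 RPKM in fasted libraries (change -0.29 ± 0.11, limma adjusted p = 0.219).

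**Figure D4:**
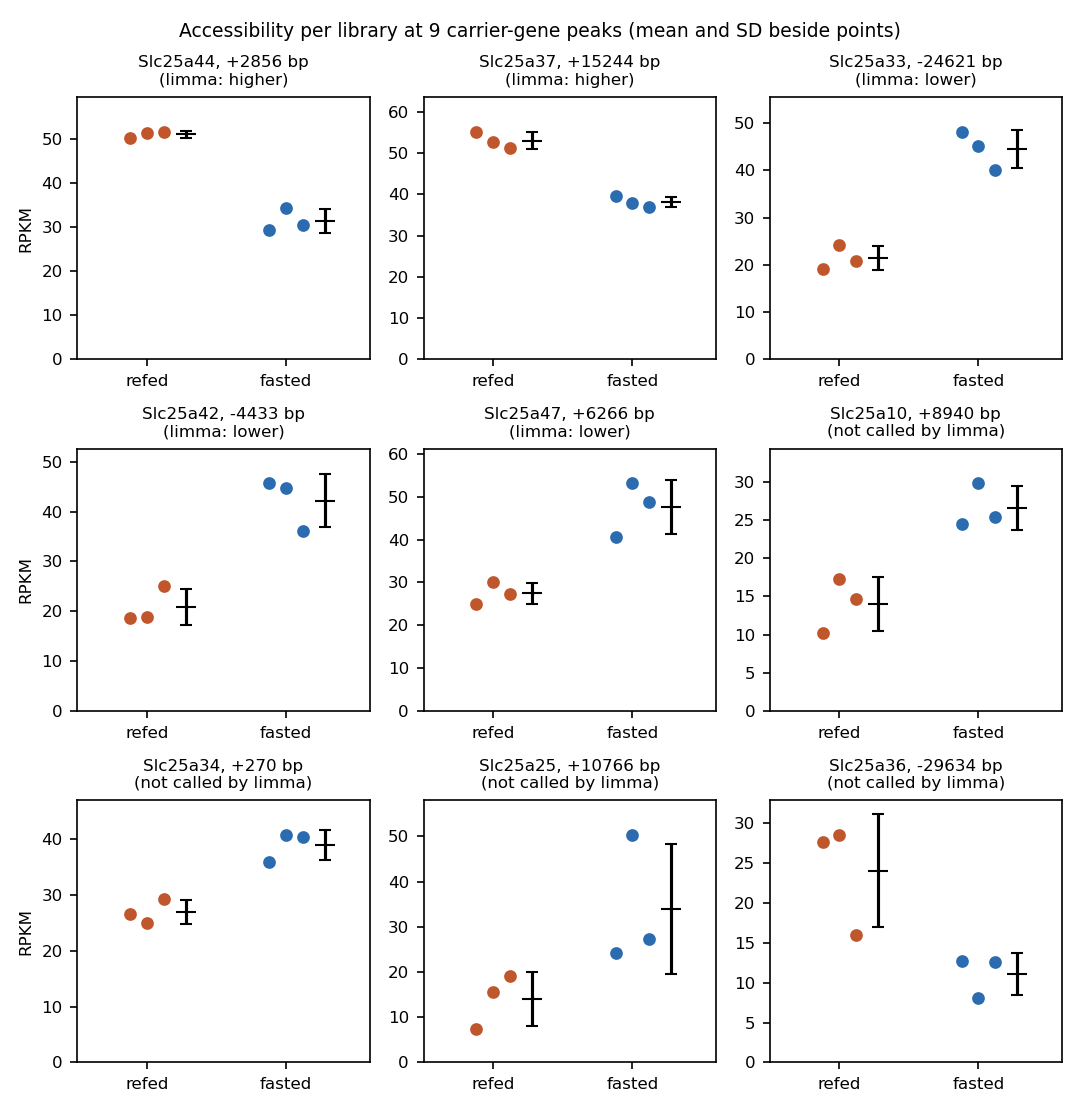
RPKM of each refed and each fasted library at 9 carrier peaks, with the mean and SD beside the points. The upper row and the first 2 panels of the middle row are the 5 peaks called by limma, where the groups do not overlap, and the other 4 were called by edgeR and not by limma.

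The phosphate, dicarboxylate and keto acid carriers had 16 peaks at 5 genes and none was called by limma, with 4 at an unadjusted p under 0.05, 2 called lower by edgeR and 2 called by DESeq2. Their median change was -0.20 and 12 of 16 were below 0. Over all peaks 14.5% had an unadjusted p under 0.05. Of the peaks with a result, edgeR called 1.43% lower and DESeq2 called 1.66%. Slc25a10, which exchanges malate or succinate for phosphate, had a peak in exon 11 of 11, in the 3' untranslated region, at chr11:120361590-120362593 (mm9). It had 10.3, 17.2 and 14.7 RPKM in refed replicates 5, 7 and 8, against 24.4, 29.8 and 25.3 RPKM in fasted replicates 1, 3 and 4. The groups did not overlap, and edgeR (adjusted p = 0.00516) and DESeq2 (adjusted p = 0.0055) called it lower, while limma did not (change -0.94 ± 0.23, adjusted p = 0.0700). Its start peak averaged 49.1 ± 4.32 RPKM in refed and 48.9 ± 3.12 RPKM in fasted libraries.

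The start peak of Slc25a34 lies in exon 1 of 5, at chr4:141178892-141180067 (mm9). It had 26.7, 24.9 and 29.3 RPKM in refed replicates 5, 7 and 8, against 35.9, 40.9 and 40.3 RPKM in fasted replicates 1, 3 and 4. Every refed value was below every fasted value, and the change of -0.54 ± 0.14 was called by edgeR (adjusted p = 0.0127) and DESeq2 (adjusted p = 0.0463) and not by limma (adjusted p = 0.0747). A second peak assigned to Slc25a34, 18764 bp upstream in an intron of Plekhm2, averaged 7.58 ± 3.70 RPKM in refed and 14.2 ± 3.03 RPKM in fasted libraries, without overlap, and was called neither by limma (adjusted p = 0.287) nor by edgeR or DESeq2. The phosphate carrier Slc25a3, needed to make ATP, had a start peak of 68.3 ± 3.89 RPKM in refed and 67.1 ± 0.731 RPKM in fasted libraries, and was not called.

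The ADP/ATP and ATP-Mg/phosphate carriers had 21 peaks at 6 genes with a median change of -0.01. None was called by limma. Over all peaks 14.5% had an unadjusted p under 0.05, and of the peaks with a result edgeR called 4.01% and DESeq2 1.66%. Among the 21, 1 had an unadjusted p under 0.05, and edgeR and DESeq2 each called 1. That peak, beside the calcium-dependent ATP-Mg carrier Slc25a25, is intergenic at chr2:32268641-32268999 (mm9), 10766 bp past the start. It had 7.34, 15.5 and 19.0 RPKM in refed replicates 5, 7 and 8, against 24.1, 50.4 and 27.3 RPKM in fasted replicates 1, 3 and 4. Both groups spread widely, and the change was -1.31 ± 0.34 (limma adjusted p = 0.0833, edgeR adjusted p = 0.0291, DESeq2 adjusted p = 0.0490). The start peaks of the ADP/ATP carriers Slc25a4 and Slc25a5 were among the weaker ones. Slc25a4 averaged 16.1 ± 1.71 RPKM in refed and 21.0 ± 5.37 RPKM in fasted libraries, and Slc25a5 averaged 28.0 ± 2.07 RPKM in refed and 28.1 ± 0.289 RPKM in fasted libraries.

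The carnitine carrier Slc25a20, which brings acylcarnitines into mitochondria for oxidation, had a single peak, at its start. It had 30.9, 35.5 and 35.9 RPKM in refed replicates 5, 7 and 8, against 35.2, 38.7 and 37.9 RPKM in fasted replicates 1, 3 and 4. The groups overlapped, and the change of -0.13 ± 0.13 did not pass (limma adjusted p = 0.720).

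Mitochondrial transport genes outside the Slc25a prefix were read from a list of 23 genes, all with peaks, 79 in number. Limma called 1 higher and 0 lower in refed livers, which is 1.27% of them, close to the 1.23% of all peaks, and the median change was -0.09. Of these 79 peaks 55 (69.6%) were below 0, against 59.4% of carrier peaks and 45.6% of all peaks, with empty peaks among the last. Their sums were 2000 to 2156 RPKM in refed libraries, against 2182 to 2284 RPKM in fasted libraries, so the lean to lower values was not particular to the carrier genes. The list had 1 call without fasted replicate 3 and 0 without any other single library. With edgeR 2 peaks of the list rose and 5 fell, against 4.01% of all peaks tested by edgeR; those that fell lie at Sfxn5, Ucp3, Cpt1a and 2 at Sfxn1.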

How the data were processed

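Liver ATAC-seq libraries were grouped by the treatment in the labels. Per the submitters' processing notes, the authors worked in the mm9 build with Bowtie2, cutadapt and SAMtools, with FastQC, with MACS2 and HOMER, and with DESeq2; the sources used here give no versions or settings and no word on a shift for the transposase. The authors' deposited values are RPKM over 1 merged peak set, and the deposited log2 columns hold their log2; a peak without a read holds the value of 0.9 reads. Scaling by reads in peaks removes differences between libraries in how many reads fall in peaks. The authors' deposited edgeR table gives read counts, a p-value, an FDR and a log2 fold change.

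Changes are refed minus fasted, fitted to log2 RPKM of the whole table in R 4.3.3 by limma 3.58.1 (intensity trend, no filter or pseudocount) and called at an adjusted p of 0.05. RPKM steps gave whole reads for 100% of values, at a tolerance of 0.01 reads or as an empty peak, and equalled the deposited counts at 3314 of 3314 peaks. On these, edgeR 4.0.16 (TMM, filterByExpr, 61067 peaks kept, 2449 called) and DESeq2 1.42.0 (no adjusted p for 18693 peaks) were run as alternatives. The fits were also run on reads simulated with known changes. The spread of those reads was fixed in advance and not taken from these libraries, so accuracy on the real data is not shown. The members, role groups and other lists were chosen with earlier results of these data known. Every peak called by limma is given in each library, as is the peak of smallest p of each further gene called by edgeR; other peaks named were picked by their values or as examples. The definition of a start peak was added after seeing the data, since many start peaks carry an exon or intron class. Promoter sequences are RefSeq's (GRCm38.p6), and no coordinate was carried between builds. A few named items are not reported here.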

Additional observations from a re-analysis of the deposited data

How the results depend on the processing

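The 13 alternatives were followed at 9 carrier peaks: the 5 limma calls and the peak of smallest p of 4 further genes called by edgeR. The Slc25a42 peak 7020 bp upstream, also called by edgeR, was not among them. All 9 kept the sign of their change. Their groups did not overlap, so leaving out 1 library, the filter, log2(RPKM + 1) or dropping the trend could not have reversed it. The 5 limma calls were kept in 43 of 65 alternative fits and lost in 22, and the 4 other peaks were called in 9 of 52. Against 2 carrier peaks called higher, DESeq2 called 1, median centring 1, peaks within 10 kb of a start held 1, and quantile normalization and limma without an intensity trend gave 0. Against 3 called lower, edgeR called 7, median centring 6, DESeq2 5, and quantile normalization and limma without a trend 0. Under these last 2, 31 and 23 carrier peaks had an unadjusted p under 0.05, and 94 and 0 of all peaks were called. With 1 library left out, 0 to 2 were called higher and 2 to 4 lower, while calls over all peaks ran from 150 to 1175. For the other transport genes, against 1 call, edgeR called 7, median centring 4, and the filter on low RPKM, log2(RPKM + 1), quantile normalization and limma without a trend 0, with 0 to 1 over the left-out libraries; the cause was not tested. Of the 24 carrier peaks in HOMER's promoter class 0 were called in each fit; the Slc25a34 start peak, in the exon class, was called by edgeR and DESeq2. The median change over carrier peaks stayed below 0, from -0.11 to -0.04. No paired analysis was possible because the groups share no replicate numbers. Depth limits the weaker peaks: a called peak such as that of Slc25a42 rests on 14 to 51 reads per library.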

Other observations

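Several carrier genes have open chromatin that the nearest-start rule credits to a neighbour. In all, 19 peaks lie in the transcripts of 10 carrier genes but are assigned to another gene, and none was called by limma, edgeR or DESeq2. An unadjusted limma p under 0.05 was found for 2 of the 19, against 14.5% of all peaks. Among the 19 are start peaks of genes that have no start peak of their own in the member list. The peak at the start of Slc25a11, the oxoglutarate carrier, is assigned to Rnf167 and averaged 52.1 ± 2.97 RPKM in refed and 54.5 ± 2.20 RPKM in fasted libraries (SD, n = 3 each). The peak at Slc25a28, the second mitoferrin, is assigned to BC037704 and averaged 80.0 ± 9.97 RPKM in refed and 81.8 ± 12.3 RPKM in fasted libraries. The peak at Slc25a40 is assigned to Dbf4 and averaged 82.0 ± 4.07 RPKM in refed and 80.4 ± 2.75 RPKM in fasted libraries. These were chosen after their values were seen.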
